A study of Mus musculus with 9 samples.

Results

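The enucleation and nuclear envelope genes described here are Xpo7, Hdac2, Rac1, Rac2, Diaph3, Mxi1, Lmna, Lmnb1, Lbr and Vim. They were taken by gene symbol, 10 of the 20368 genes in the table, and all 10 passed the filter for testing. Diaph3 stood there under the older symbol Diap3 and was matched by its Ensembl identifier (ENSMUSG00000022021). RNA was sequenced from splenocytes of 4-week-old C57BL/6 mice sorted for CD71, the transferrin receptor, together with Ter119, a surface antigen of erythroid cells, a gate the submitters named erythroblast population II. The libraries were 3 Dhh-/- (knockout), 3 Dhh+/- (heterozygous) and 3 wildtype ones. Dhh encodes the secreted ligand Desert hedgehog. The labels give neither the construction of the null allele nor a cell type restriction of it, and leave it unsaid if 1 mouse gave 1 library. The p-values here therefore set differences between genotypes against the spread of libraries within a genotype, and that spread may be technical.

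An erythroblast condenses its chromatin, exports part of its nuclear proteins and then expels the nucleus through an actin and myosin ring. In mouse erythroblasts the exportin encoded by Xpo7 and the deacetylase encoded by Hdac2 take part in the condensation, and the GTPases encoded by Rac1 and Rac2 act with the formin mDia2, the product of Diaph3, on the ring. Mxi1 encodes an antagonist of Myc that is also needed for mouse enucleation. Lmna and Lmnb1 encode lamins A/C and B1 of the nuclear lamina, and Lbr encodes an inner nuclear membrane protein that binds lamin B and heterochromatin. Vim encodes vimentin, an intermediate filament protein that maturing mammalian erythroblasts lose and that leukocytes and stromal cells carry.

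The libraries held 7.05 to 14.23 M reads recovered from the values (M is 1e6 reads). Read numbers limit the precision of each level, beside the spread between libraries. All 10 erythroid markers checked (among them Gata1, Klf1 and Slc4a1) were at or above 1 FPKM (reads or fragments scaled for gene length and between libraries) in every library. Markers of other blood cells were present too. The mean of 45 B cell, T and NK cell, macrophage and neutrophil markers was 3.74, 5.01 and 4.18 in knockout replicates 1 to 3, 4.00, 4.53 and 4.30 in heterozygous replicates 1 to 3 and 5.12, 4.63 and 2.26 in wildtype replicates 1 to 3 on the log2(FPKM + 1) scale. Below, this is called the leukocyte marker mean, and none of the 10 genes is part of it. Summed over the list, macrophage markers were at 439 to 1461 FPKM in knockout, 729 to 927 FPKM in heterozygous and 142 to 1416 FPKM in wildtype libraries. B cell markers summed to 359 to 898 FPKM in knockout, 647 to 863 FPKM in heterozygous and 91.9 to 1450.0 FPKM in wildtype libraries. T and NK cell markers summed to 74.7 to 140.5 FPKM in knockout, 70.7 to 117 FPKM in heterozygous and 9.81 to 190.4 FPKM in wildtype libraries, and neutrophil markers to 418 to 1495 FPKM in knockout, 259 to 767 FPKM in heterozygous and 330.5 to 1625 FPKM in wildtype libraries. The most abundant markers were Cd74 and H2-Aa of the B cell list, Gzma and Lck of the T and NK cell list, Lyz2 and Csf1r of the macrophage list and S100a9 and S100a8 of the neutrophil list. Gp9 and Itga2b led the platelet list, Pecam1 was the only stromal or endothelial marker tested, and Hbb-bs and Alas2 led the erythroid list. Cd74 averaged 359 ± 165 FPKM in knockout, 394 ± 58.7 FPKM in heterozygous and 357 ± 359 FPKM in wildtype libraries (SD, n = 3 each). In wildtype replicate 3, Pax5 of 11 B cell markers and Cd3d, Cd3g and Cd8b1 of 12 T and NK cell markers were listed at 0, as were 8 of 10 stromal and endothelial markers. The mean of each of these 8 over all libraries was at most 0.233 FPKM.

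Lmnb1, also lowest in knockout replicate 2, is not shown here, as member windows on its chromosome (18) were left out. The upstream sequences of Lbr, Lmna, Diaph3 and Vim are shown because Lbr, Lmna and Diaph3 shared their lowest library (knockout replicate 2), whereas Vim was lowest in wildtype replicate 3. Each is the 250 bases before the RefSeq transcription start on GRCm38.p6 (mm10), written 5′ to 3′ on the gene's strand, with motif words in capitals. For Lmna the more upstream of the starts in that RefSeq table was taken. It is not the 5′ end of the gene in GENCODE M21, which reaches 88509956 on the minus strand, so the Lmna window lies inside the annotated gene. The Lbr and Vim windows also lie inside the genes as GENCODE M21 gives them, and the Diaph3 window overlaps the edge of its gene. The windows are chr1:181842402-181842651 (minus strand) for Lbr, chr3:88503353-88503602 (minus strand) for Lmna, chr14:87141225-87141474 (minus strand) for Diaph3 and chr2:13574061-13574310 (plus strand) for Vim.
Lbr: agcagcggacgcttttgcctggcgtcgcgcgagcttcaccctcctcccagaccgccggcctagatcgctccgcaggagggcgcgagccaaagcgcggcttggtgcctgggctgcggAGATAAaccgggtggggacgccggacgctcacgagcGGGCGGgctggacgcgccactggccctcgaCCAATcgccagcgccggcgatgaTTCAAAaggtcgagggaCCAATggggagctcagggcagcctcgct
Lmna: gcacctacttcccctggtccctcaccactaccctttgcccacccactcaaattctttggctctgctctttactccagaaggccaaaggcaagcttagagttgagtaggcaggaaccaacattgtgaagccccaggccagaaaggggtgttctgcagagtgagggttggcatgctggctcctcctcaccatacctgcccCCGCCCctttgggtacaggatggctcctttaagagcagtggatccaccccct
Diaph3: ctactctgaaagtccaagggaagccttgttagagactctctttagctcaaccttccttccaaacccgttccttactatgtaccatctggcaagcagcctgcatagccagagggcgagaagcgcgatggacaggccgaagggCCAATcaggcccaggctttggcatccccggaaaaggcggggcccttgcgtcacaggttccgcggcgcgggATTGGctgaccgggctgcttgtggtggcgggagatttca
Vim: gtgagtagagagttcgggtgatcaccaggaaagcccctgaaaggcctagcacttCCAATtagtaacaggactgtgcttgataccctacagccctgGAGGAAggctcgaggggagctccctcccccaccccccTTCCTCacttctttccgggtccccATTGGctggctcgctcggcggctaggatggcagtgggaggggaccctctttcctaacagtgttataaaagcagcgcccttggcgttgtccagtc
The words searched, on either strand, were AGATAA or AGATAG or TGATAA or TGATAG for GATA factors, CCAAT for the CCAAT box, TTTGAA for the cell cycle genes homology region, TTCCCGC or TTCGCGC or TTGCCGC or TTGGCGC for E2F, GAGGAA for PU.1 and GGGCGG for the GC box. None of the words shown in capitals overlapped another. Lbr held an AGATAA word at positions -134 to -129 from the start, a pair of CCAAT words on the strand of the gene, a TTTGAA word on the opposite strand and a GC box. Diaph3 held CCAAT on each strand, and Lmna a single GC box word. Vim held CCAAT on each strand and GAGGAA on each strand. Of 32851 upstream windows of this length in the RefSeq table, 26.5% held a GATA word, 33.8% CCAAT, 15.99% TTTGAA, 7.89% an E2F word, 23.3% GAGGAA and 32.7% GGGCGG. The base composition differed between the windows, with 31 CpG pairs in Lbr, 14 in Diaph3, 8 in Vim and 1 in Lmna, against a median of 6 over all windows. A word is a description of the sequence and no evidence that a factor binds.

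**Figure D1:**
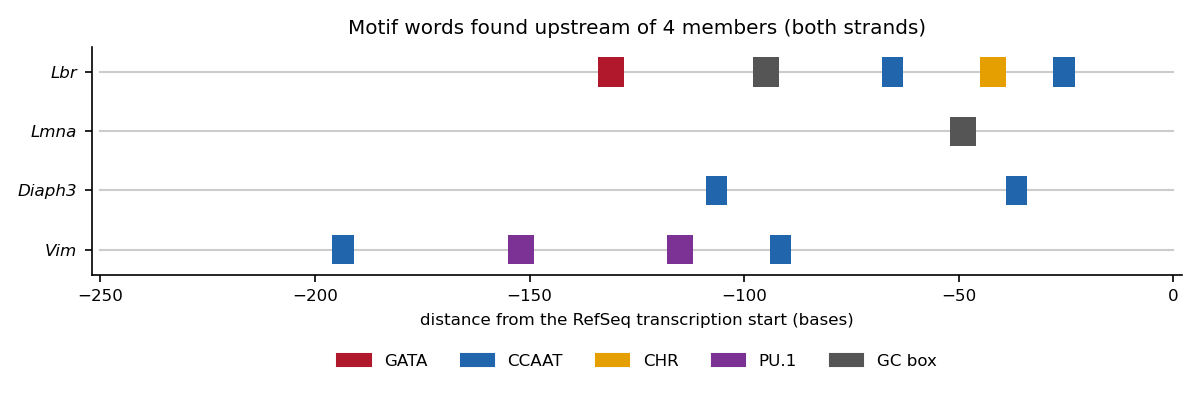
Motif words found in the 250 bases before the RefSeq start of Lbr, Lmna, Diaph3 and Vim; the x axis is the distance from the start in bases and each coloured box is a word on either strand. Lbr, Diaph3 and Vim hold CCAAT, Vim also holds GAGGAA (PU.1), and Lmna holds only a GC box word.

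In these libraries, which also held markers of other blood cells, the abundance of the 10 genes spanned about an order of magnitude per length (FPKM, which is scaled to gene length). Xpo7 was the most abundant at a mean of 351 FPKM over the 9 libraries, followed by Lbr at 325, Lmnb1 at 203, Lmna at 149, Diaph3 at 91.1, Rac1 at 64.4, Mxi1 at 51.6, Rac2 at 41.5, Hdac2 at 37.4 and Vim at 30.8 FPKM. The means of Xpo7 and Lbr lay above those of 97.9% and 97.8% of the 9543 tested genes, and that of Vim above 75.8%. The ranges over the libraries overlapped between Xpo7 (271 to 488 FPKM) and Lbr (262 to 376 FPKM), between Lmnb1 (160.2 to 239 FPKM) and Lmna (123 to 199.6 FPKM), between Diaph3 (68.8 to 111 FPKM) and Rac1 (59.0 to 69.4 FPKM), between Rac1 and Rac2 (21.5 to 66.3 FPKM), and among Mxi1, Rac2, Hdac2 and Vim. The neighbours in this order whose ranges did not overlap were Lbr and Lmnb1, Lmna and Diaph3, and Rac1 and Mxi1. The smallest recovered number of reads for any of the 10 genes in a library was 173, for Vim in wildtype replicate 3, and Xpo7 had up to 86472. The genes differed in how far they spread within a genotype. The residual SD within genotypes on the log2(FPKM + 1) scale was 0.92 for Vim, larger than that of 96.6% of the tested genes, and 0.54 for Rac2, larger than that of 87.7%. It was 0.07 for Rac1, larger than that of only 0.713% of the tested genes. For the other 7 genes it lay between 0.13 (Mxi1) and 0.32 (Xpo7).

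**Figure D2:**
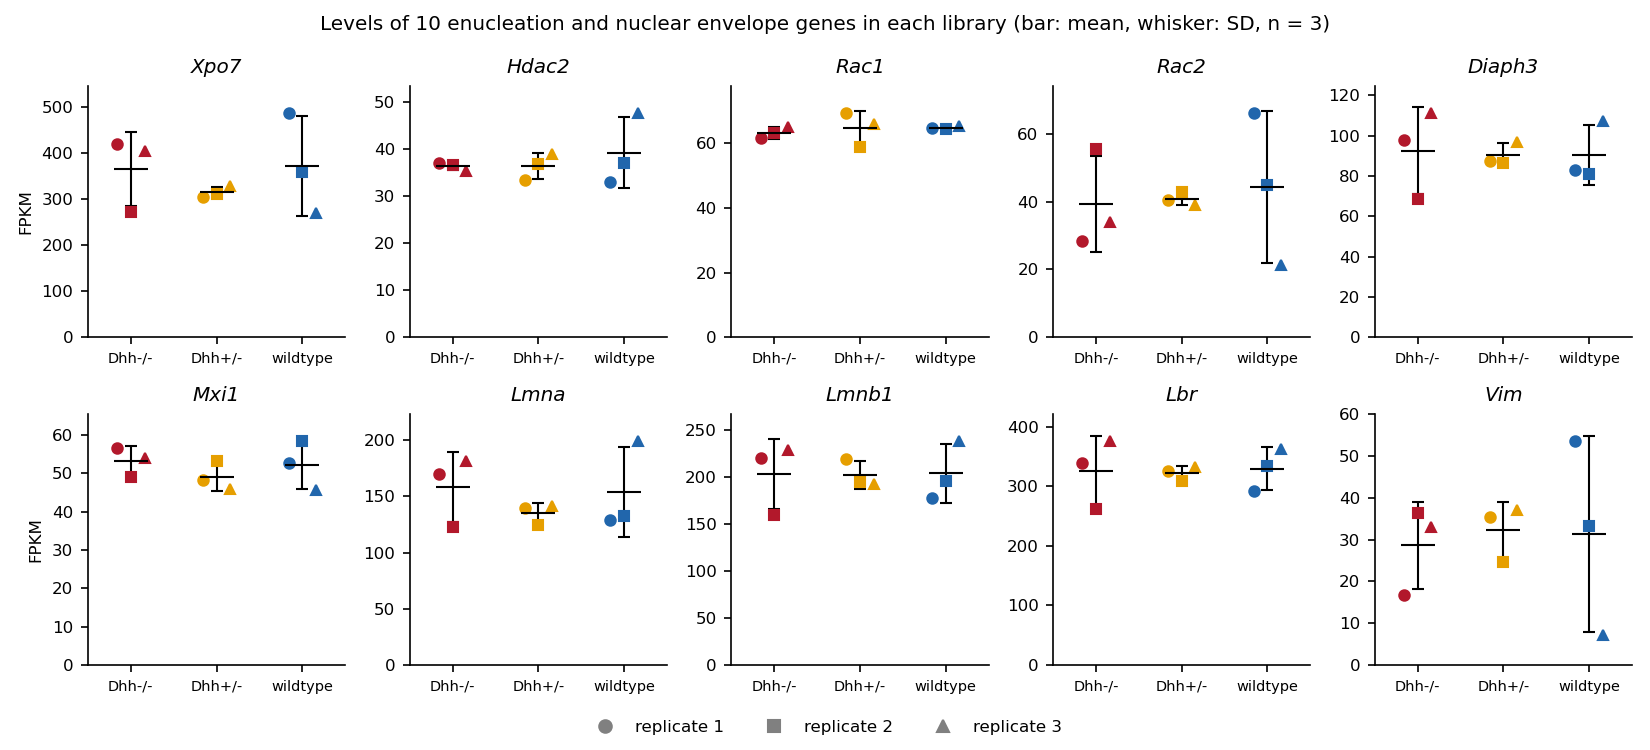
FPKM of each of the 10 genes in every library, by genotype (knockout, heterozygous, wildtype), with the mean as a bar and the SD as a whisker (n = 3). The groups overlap in every panel; Vim spans 7.05 to 53.7 FPKM within wildtype alone, and Rac1 stays between 59.0 and 69.4 FPKM.

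The comparison of knockout with wildtype asked whether losing both Dhh alleles changes the genes of nuclear export, condensation and expulsion. No member passed the test. Limma called 0 of 10 members at an adjusted p below 0.05 and 0 of 9543 tested genes (0%). At an unadjusted p below 0.05 it had 0 of 10 members, against 0.451% of all tested genes (43 genes), and voom, run on reads recovered from the values, called 0 genes, with 38 below 0.05 unadjusted. In each comparison of genotypes the limma share of all tested genes was below the 0.05 that such p-values would give without any difference. A count of 0 of 10 members therefore says little. Knockout and wildtype FPKM overlapped for each of the 10 members, that is 0 of 10 without overlap, against 2.48% of all tested genes (1.08% with the knockout higher and 1.4% with it lower). The differences, knockout minus wildtype on the log2(FPKM + 1) scale, ranged from -0.09 for Hdac2 to 0.19 for Vim, with 4 members above 0 and 6 below. Their median was -0.01, beside 0.01 over all tested genes. For 9 of the 10 members the 95% interval of the difference stayed inside a 2-fold change, the exception being Vim (-1.20 to 1.58). A miss of the threshold does not show that the levels were equal, and the intervals give the size that these libraries leave possible. An exact permutation test of 3 against 3 libraries cannot give a 2-sided p below 0.1, and the lowest over the members was 0.3.

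**Figure D3:**
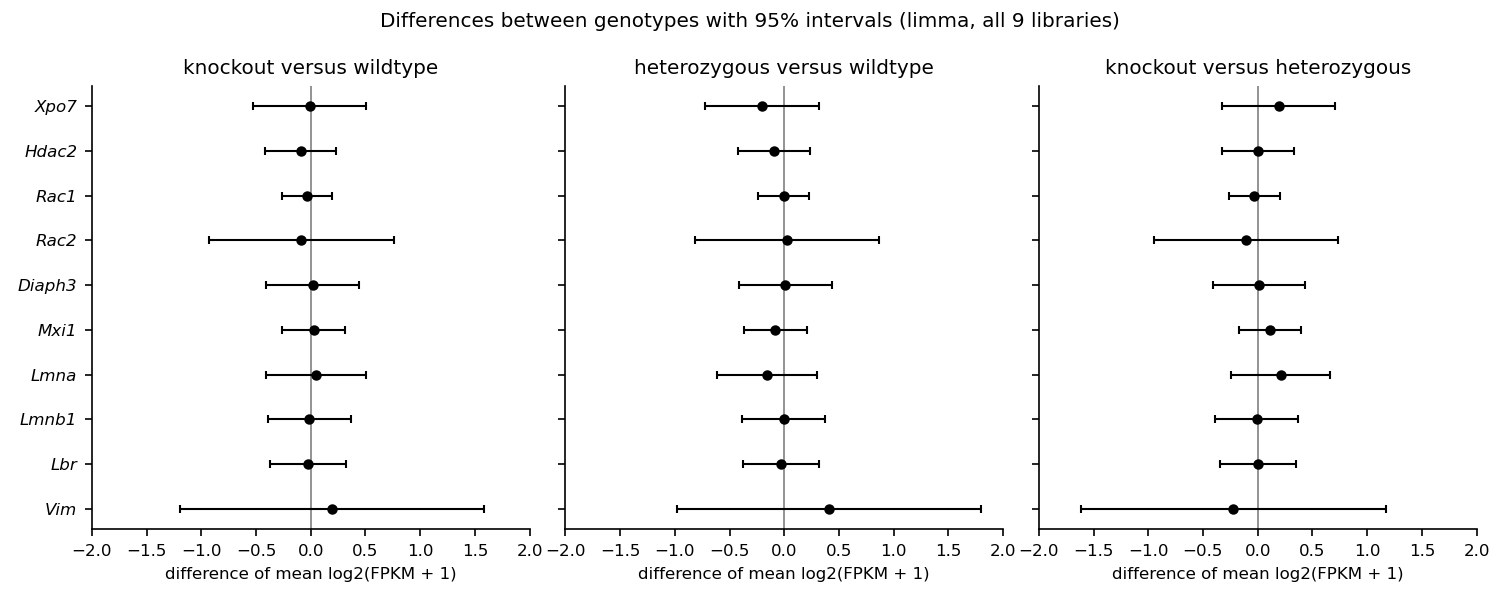
Difference of the mean log2(FPKM + 1) between genotypes for each member, with its 95% interval from limma over all 9 libraries; each panel is a contrast, first named minus second. All 30 intervals include 0. Vim has the widest interval in each panel and Rac1 the narrowest.

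Xpo7 encodes the exportin that carries proteins, histones among them in mouse erythroblasts, out of the nucleus. It was at 421, 273 and 404 FPKM in knockout libraries, 305, 311 and 328 FPKM in heterozygous libraries and 488, 359 and 271 FPKM in wildtype libraries. The highest and the lowest library were both wildtype, and the heterozygous libraries lay close together between them. The knockout minus wildtype difference was -0.01 ± 0.23 (SE, 95% interval -0.53 to 0.51, limma adjusted p = 0.9997). Without wildtype replicate 1 it was 0.21, and without wildtype replicate 3 it was -0.22.

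Hdac2, the deacetylase of chromatin condensation, was at 37.1, 36.6 and 35.4 FPKM in knockout libraries, 33.4, 36.8 and 39.0 FPKM in heterozygous libraries and 33.0, 37.1 and 47.8 FPKM in wildtype libraries. Wildtype replicate 3 stood highest, and the other 8 libraries lay within 33.0 to 39.0 FPKM. The knockout minus wildtype difference was -0.09 ± 0.14 (SE, 95% interval -0.42 to 0.24). Mxi1, the Myc antagonist, was at 56.7, 49.0 and 54.0 FPKM in knockout libraries, 48.2, 53.4 and 45.9 FPKM in heterozygous libraries and 52.7, 58.6 and 45.8 FPKM in wildtype libraries. Its groups overlapped, and the highest library was 1.28 times the lowest. The difference for Mxi1 was 0.03 ± 0.13 (SE, 95% interval -0.26 to 0.32).

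Of the actin genes, Rac1 was the steadiest of the 10. It was at 61.6, 63.2 and 65.2 FPKM in knockout libraries, 69.4, 59.0 and 66.0 FPKM in heterozygous libraries and 64.7, 64.5 and 65.5 FPKM in wildtype libraries, a range of 1.18-fold. Its knockout minus wildtype difference was -0.04 ± 0.10 (SE, 95% interval -0.27 to 0.20), the narrowest interval of the 10. Rac2, which encodes the form of the GTPase found in blood cells, was at 28.6, 55.4 and 34.0 FPKM in knockout libraries, 40.6, 42.9 and 39.1 FPKM in heterozygous libraries and 66.3, 45.1 and 21.5 FPKM in wildtype libraries. Its levels rank wildtype replicate 1 and knockout replicate 2 highest and wildtype replicate 3 lowest. The ratio of Rac2 to Rac1 FPKM was 0.464, 0.877 and 0.521 in knockout libraries, 0.584, 0.727 and 0.591 in heterozygous libraries and 1.02, 0.698 and 0.328 in wildtype libraries, so Rac2 was above Rac1 only in wildtype replicate 1. Rac1 and Rac2 are close paralogs, and reads of such genes can be shared in the authors' counting. The Rac2 difference was -0.08 ± 0.37 (SE, 95% interval -0.93 to 0.76), and it was 0.27 without wildtype replicate 1 and -0.52 without wildtype replicate 3. Rac2 (78559167 to 78572783) lies on chromosome 15, which also carries Dhh.

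Diaph3, the formin gene, was at 97.9, 68.8 and 111 FPKM in knockout libraries, 87.3, 86.3 and 97.1 FPKM in heterozygous libraries and 82.8, 80.9 and 107 FPKM in wildtype libraries. Knockout replicate 2 was lowest and knockout replicate 3 highest, so the knockout libraries enclosed all others. The knockout minus wildtype difference was 0.02 ± 0.19 (SE, 95% interval -0.40 to 0.44).

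The lamina genes Lmna and Lmnb1 shared their lowest and highest libraries. Lmna was at 170.3, 123 and 182 FPKM in knockout libraries, 139, 124 and 141 FPKM in heterozygous libraries and 129, 133 and 199.6 FPKM in wildtype libraries. Lmnb1 was at 221, 160.2 and 229 FPKM in knockout libraries, 219.8, 195 and 193 FPKM in heterozygous libraries and 178, 196 and 239 FPKM in wildtype libraries. Both were lowest in knockout replicate 2 and highest in wildtype replicate 3. The knockout minus wildtype differences were 0.05 ± 0.20 for Lmna (SE, 95% interval -0.41 to 0.51) and -0.01 ± 0.17 for Lmnb1 (SE, 95% interval -0.39 to 0.37). The ratio of Lmna to Lmnb1 FPKM was 0.771, 0.766 and 0.794 in knockout libraries, 0.634, 0.640 and 0.734 in heterozygous libraries and 0.726, 0.679 and 0.835 in wildtype libraries. Lmnb1 was the more abundant lamin in each library. The ratios of knockout and heterozygous libraries did not overlap. The wildtype range enclosed the knockout ratios, and the heterozygous ratios of 0.634 and 0.640 lay below every wildtype library. Neither Lmna nor Lmnb1 alone was apart between knockout and heterozygous libraries, whereas 4.48% of all tested genes were. The Rac2 to Rac1 ratio overlapped between these groups. No share over other gene pairs was taken, and the Lmna to Lmnb1 ratio is given without a test. Lbr was at 339, 262 and 376 FPKM in knockout libraries, 325, 308 and 331 FPKM in heterozygous libraries and 291, 333 and 363 FPKM in wildtype libraries. Its lowest library was again knockout replicate 2, its highest was knockout replicate 3, and the difference between knockout and wildtype was -0.03 ± 0.15 (SE, 95% interval -0.37 to 0.32).

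Vim had the widest spread of the 10 genes. It was at 16.8, 36.3 and 32.9 FPKM in knockout libraries, 35.4, 24.7 and 37.0 FPKM in heterozygous libraries and 53.7, 33.4 and 7.05 FPKM in wildtype libraries. The highest and lowest libraries were both wildtype and differed 7.61-fold. The knockout minus wildtype difference was 0.19 ± 0.61 (SE, limma adjusted p = 0.9997), 0.76 without wildtype replicate 1 and -0.62 without wildtype replicate 3. The leukocyte marker mean was 5.12 in wildtype replicate 1 and 2.26 in wildtype replicate 3, the highest and the lowest of the 9 libraries. With that mean added to the model as a covariate, the knockout minus wildtype difference was -0.08 ± 0.25 for Vim and -0.25 ± 0.12 for Rac2 (SE, limma adjusted p = 0.9995 for both). Both SEs were smaller than without it. That of Diaph3 was smaller as well, at 0.14 against 0.19 between heterozygous and wildtype. No share over all tested genes was taken. Over all 20 alternative settings of the knockout and wildtype contrast the lowest limma adjusted p was 0.965 for Vim and for Rac2. In bulk RNA fewer cells of a type cannot be told apart from less RNA per cell.

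The heterozygous libraries were compared with wildtype, and with knockout, to see whether loss of a single allele or of the remaining one changes these genes. These 3 comparisons share libraries. Between heterozygous and wildtype, limma called 0 of 10 members and 0 of 9543 tested genes (0%). It had 0 of 10 members at an unadjusted p below 0.05, against 1.18% of all tested genes (113 genes), and voom called 0 genes, with 91 below 0.05 unadjusted. FPKM ranges were apart for 0 of 10 members, against 4.36% of all tested genes (1.29% with the heterozygous group higher and 3.07% with it lower). The differences ranged from -0.20 ± 0.23 for Xpo7 to 0.41 ± 0.61 for Vim (SE), with 3 members above 0, 7 below and a median of -0.02, beside -0.0020 over all tested genes. Lmna differed by -0.16 ± 0.20 (SE, 95% interval -0.62 to 0.30). Between knockout and heterozygous, limma again called 0 of 10 members and 0 of 9543 tested genes (0%). It had 0 of 10 members at an unadjusted p below 0.05, against 0.587% of all tested genes (56 genes), and voom called 0 genes, with 53 below 0.05 unadjusted. FPKM ranges were apart for 0 of 10 members, against 4.48% of all tested genes (2.61% with the knockout higher and 1.88% with it lower). Here the largest difference above 0 was that of Lmna, at 0.21 ± 0.20 (SE, 95% interval -0.25 to 0.66). Xpo7 followed at 0.19 ± 0.23 and Mxi1 at 0.11 ± 0.13 (SE), and the difference furthest below 0 was that of Vim at -0.22 ± 0.61 (SE). For 8 of the 10 members, all but Hdac2 and Rac1, the SD of FPKM was smallest in heterozygous libraries, as it was for 59.4% of all tested genes, for example 12.3 FPKM for Xpo7, against 80.9 FPKM in knockout and 109 FPKM in wildtype. The difference in spread was not tested.

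Across genotypes, 2 sets of libraries stood apart in depth. The shallower set, of 7.05 to 9.66 M reads, held knockout replicate 2, heterozygous replicate 2 and wildtype replicates 1 and 2. The deeper set held the remaining 5 libraries, of 13.1 to 14.23 M. Rac2 was at 42.9 to 66.3 FPKM in the 4 shallower and 21.5 to 40.6 FPKM in the 5 deeper libraries. Lmna was at 123 to 133 FPKM in the shallower and 139 to 199.6 FPKM in the deeper libraries, and Diaph3 at 68.8 to 86.3 FPKM in the shallower and 87.3 to 111 FPKM in the deeper libraries. These 3 of the 10 members did not overlap between the sets, 1 of them higher in the shallower libraries (5.66% of all tested genes) and 2 lower (6.86% of all tested genes), against 12.5% in either direction. Lmnb1 and Lbr overlapped by a few libraries, with 160.2 to 196 and 262 to 333 FPKM in the shallower and 193 to 239 and 325 to 376 FPKM in the deeper libraries. Xpo7, Hdac2, Rac1, Mxi1 and Vim overlapped as well. The leukocyte marker mean did not overlap either, at 4.53 to 5.12 in the shallower and 2.26 to 4.30 in the deeper libraries. The summed erythroid markers were apart as well, at 23939 to 26894 FPKM in the shallower and 14380 to 18197 FPKM in the deeper libraries. Hbb-bs and Alas2 made up much of that sum. Hbb-bs was at 7642 to 8985 FPKM in the shallower and 4022 to 5453 FPKM in the deeper libraries. Alas2 was at 6379 to 7458 FPKM in the shallower and 2884 to 4069 FPKM in the deeper libraries. The other erythroid markers were not compared singly between the sets. Depth, leukocyte markers and the erythroid marker sum cannot be told apart here. Within the deeper libraries Lmna was at 170.3 and 182 FPKM in knockout, 139 and 141 FPKM in heterozygous and 199.6 FPKM in wildtype. Within the shallower ones it was at 123 FPKM in knockout, 124 FPKM in heterozygous and 129 and 133 FPKM in wildtype. Wildtype stood above knockout within each set for Lmna. Rac2 within the deeper libraries was at 28.6 and 34.0 FPKM in knockout, 40.6 and 39.1 FPKM in heterozygous and 21.5 FPKM in wildtype. Within the shallower ones Rac2 was at 55.4 FPKM in knockout, 42.9 FPKM in heterozygous and 66.3 and 45.1 FPKM in wildtype. Rac2 was thus lower in wildtype than in knockout in the deeper set and mixed in the shallower one. Diaph3 within the deeper libraries was at 97.9 and 111 FPKM in knockout, 87.3 and 97.1 FPKM in heterozygous and 107 FPKM in wildtype. Within the shallower ones Diaph3 was at 68.8 FPKM in knockout, 86.3 FPKM in heterozygous and 82.8 and 80.9 FPKM in wildtype. The Diaph3 values were mixed in the deeper set and higher in wildtype than in knockout in the shallower one. Each set holds 1 or 2 libraries a genotype and was given no test, and the single deeper wildtype library is replicate 3, with its leukocyte marker mean of 2.26.

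**Figure D4:**
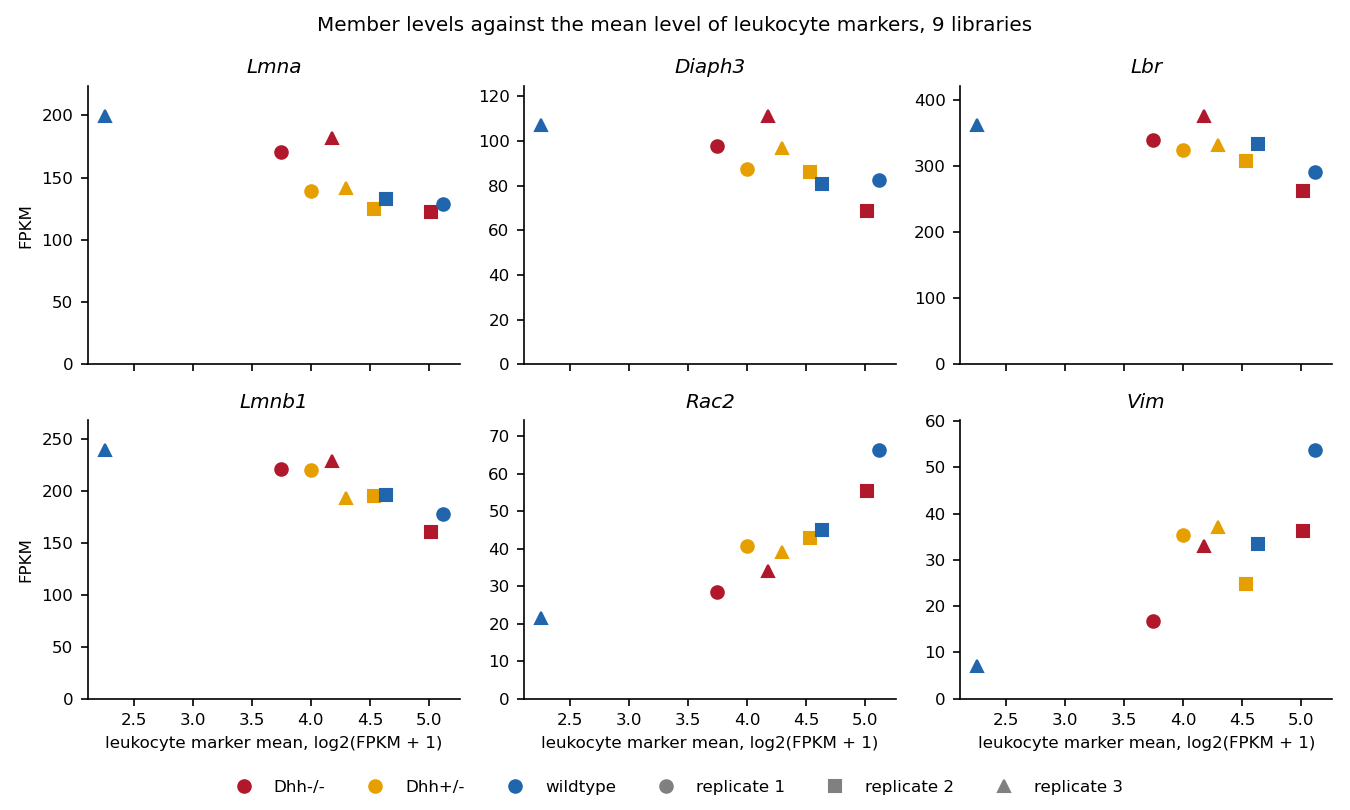
FPKM of Lmna, Diaph3, Lbr, Lmnb1, Rac2 and Vim (y axes) against the leukocyte marker mean of each library on the log2(FPKM + 1) scale (x axis); colour is the genotype and the symbol is the replicate number. Wildtype replicate 3, at a marker mean of 2.26, has the highest Lmna and Lmnb1 and the lowest Rac2 and Vim, and the 2 libraries above 5 have the lowest Lmnb1 and Lbr and the highest Rac2.

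The genes whose log2(FPKM + 1) ran most alike to each member over the 9 libraries are given with Pearson's r, as a description chosen from 9543 genes and with no p. For Vim they were Cd7, a surface protein of T and NK cells (r = 0.990), Sirpb1a (r = 0.987) and Slfn2 (r = 0.985). Cd7 reached 17.4 FPKM where Vim was highest, in wildtype replicate 1, and had 0.574 FPKM where Vim was lowest, in wildtype replicate 3. For Rac2 they were Fli1, a transcription factor of blood cells (r = 0.985), Lrrk1 (r = 0.984) and Prkcb, a protein kinase C gene of B cells and other leukocytes (r = 0.983). All 6 were highest in wildtype replicate 1 and lowest in wildtype replicate 3. For these 6, r without wildtype replicate 3 was between 0.948 and 0.981. For Lmna they were Nmt1 (r = 0.986), Mad2l1, a spindle checkpoint gene (r = 0.981), and Ube2e3 (r = 0.980), for Lmnb1 Fbxo45 (r = 0.990), Ik (r = 0.986) and Rb1, the retinoblastoma gene (r = 0.985), and for Lbr Usf2 (r = 0.973), Atp6v1d (r = 0.971) and Naa80 (r = 0.970). For Diaph3 they were Cep89 (r = 0.975), Nptn (r = 0.974) and Ppp6r3 (r = 0.974). Xpo7 ran with another set, Cdk12 (r = 0.983), Tmcc2 (r = 0.973) and Rb1cc1, a gene of autophagy initiation (r = 0.970). Tmcc2 was more abundant than Xpo7, with a lowest value of 752 FPKM (knockout replicate 2) and a highest of 1152 FPKM (wildtype replicate 1). Hdac2 ran with Naca (r = 0.967), Psma5 (r = 0.959) and Tfg (r = 0.959), for which r was between 0.818 and 0.877 without wildtype replicate 3. Mxi1 ran with Rbm14 (r = 0.950), Nars (r = 0.908) and Acmsd (r = 0.901). Rac1, with its narrow range, had the lowest values, with Furin (r = 0.901), Rdh10 (r = 0.860) and Vps25 (r = 0.808). No member was among the 3 genes most alike to another.

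The wider machinery of the nuclear envelope was measured through 7 further lists, and none of their genes passed the test in any of the 3 comparisons (limma, 0 called and 0 at an unadjusted p below 0.05 in each list). In the list of the lamina and inner nuclear membrane 19 of 21 genes were tested, with 10 above 0 and 9 below 0 between knockout and wildtype and a median difference of 0.04. The most abundant were Tmpo, which encodes the lamina-associated polypeptide 2, and Banf1, which bridges DNA and the envelope. Tmpo averaged 150.01 ± 28.4 FPKM in knockout, 146 ± 4.81 FPKM in heterozygous and 144 ± 15.0 FPKM in wildtype libraries, and Banf1 79.5 ± 6.55 FPKM in knockout, 74.8 ± 4.22 FPKM in heterozygous and 81.6 ± 15.6 FPKM in wildtype libraries (SD, n = 3 each). Syne1 and Syne2, which encode the nesprins that link the nucleus to the cytoskeleton, missed the filter at means of 0.129 and 0.625 FPKM.

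All 28 nuclear pore genes with a row of their own were tested, 8 above 0 and 20 below 0 between knockout and wildtype, with a median difference of -0.06. The count leans to the lower side without any member passing the test, and it did so between heterozygous and wildtype too, with 11 above 0 and 17 below 0 and a median of -0.04. These 2 comparisons share the wildtype libraries. Between knockout and heterozygous the list had 16 above 0 and 12 below 0. Marker lists leaned more strongly between knockout and wildtype, also with no gene called. All 11 tested B cell and all 12 macrophage markers were above 0, and 9 of 10 erythroid markers below 0. The share of all tested genes below 0 was not taken. Nup210 averaged 103 ± 13.9 FPKM in knockout, 111 ± 6.72 FPKM in heterozygous and 109.9 ± 30.3 FPKM in wildtype libraries, and Nup85 91.3 ± 5.69 FPKM in knockout, 87.6 ± 4.28 FPKM in heterozygous and 98.6 ± 24.1 FPKM in wildtype libraries (SD, n = 3 each). Nup85 was highest in wildtype replicate 3 at 123 FPKM. The list of exportins, importins and Ran split 13 above 0 and 13 below 0, with a median of -0.01. Ran, the GTPase that gives nuclear transport its direction, averaged 232 ± 23.5 FPKM in knockout, 215 ± 3.04 FPKM in heterozygous and 229 ± 36.8 FPKM in wildtype libraries (SD, n = 3 each). Its activating protein gene Rangap1 averaged 198 ± 35.7 FPKM in knockout, 185 ± 9.69 FPKM in heterozygous and 196 ± 34.97 FPKM in wildtype libraries (SD, n = 3 each). At 351 FPKM over all libraries, Xpo7 was above the mean of every other exportin and importin listed, which reached at most 124 FPKM (Kpna2).

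Among 21 histone deacetylase and condensation genes, 9 were above 0 and 12 below 0 between knockout and wildtype, with a median of -0.01. The condensin genes Smc4 and Ncapd2 led them. Smc4 averaged 331 ± 65.3 FPKM in knockout, 309.96 ± 22.3 FPKM in heterozygous and 318 ± 28.03 FPKM in wildtype libraries, and Ncapd2 306 ± 48.0 FPKM in knockout, 306 ± 11.7 FPKM in heterozygous and 309 ± 80.3 FPKM in wildtype libraries (SD, n = 3 each).

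The Myc network had 6 of 9 tested genes above 0 and 3 below 0 between knockout and wildtype, with a median of 0.07. Mxd3 and Mxd1, which encode Max partners that oppose Myc as Mxi1 does, were both more abundant than Mxi1. Mxd3 averaged 185 ± 38.1 FPKM in knockout, 165 ± 17.4 FPKM in heterozygous and 162 ± 21.1 FPKM in wildtype libraries, and Mxd1 133 ± 25.8 FPKM in knockout, 119 ± 7.74 FPKM in heterozygous and 124 ± 23.5 FPKM in wildtype libraries (SD, n = 3 each). Only 2 of 8 other intermediate filament genes passed the filter. Gfap, known as a filament gene of astrocytes, was at 37.0, 27.3 and 42.7 FPKM in knockout, 29.7, 30.4 and 37.6 FPKM in heterozygous and 29.5, 33.7 and 32.0 FPKM in wildtype libraries. Its mean over the libraries was thus near that of Vim, but it was not lowest in wildtype replicate 3. Plec, which encodes the linker plectin, was at 0.949, 1.83 and 1.15 FPKM in knockout, 1.39, 1.68 and 1.24 FPKM in heterozygous and 1.91, 1.66 and 0.209 FPKM in wildtype libraries, with the lowest library the same as for Vim. The 15 other enucleation genes split 6 above 0 and 9 below 0, with a median of -0.01. E2f2, a cell cycle transcription factor, averaged 351 ± 51.6 FPKM in knockout, 338 ± 10.5 FPKM in heterozygous and 362 ± 22.9 FPKM in wildtype libraries, and Wdr26, which encodes a ubiquitin ligase subunit, 197 ± 26.6 FPKM in knockout, 179 ± 19.1 FPKM in heterozygous and 199 ± 41.3 FPKM in wildtype libraries (SD, n = 3 each).

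**Figure D5:**
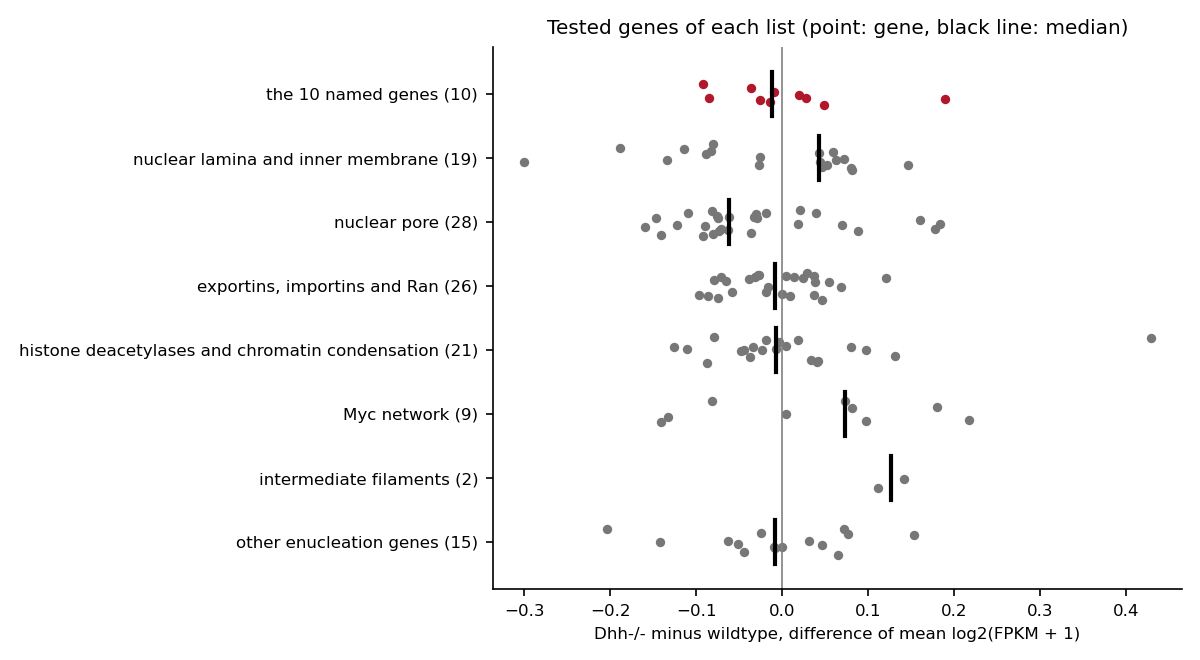
Difference of the mean log2(FPKM + 1), knockout minus wildtype, for the tested genes of each list (points) with the list median (black line) and the number tested in brackets. The medians of the 6 lists with 9 or more genes beside the 10 members lie between -0.06 and 0.07, and no gene passed the test.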

How the data were processed

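RNA sequencing values were analysed for 3 knockout, 3 heterozygous and 3 wildtype libraries. The authors deposited FPKM-type values (whether reads or fragments were counted is not recorded), with TopHat, Picard, DESeq2 and mm10 named in the submitters' processing notes without versions or roles. Of annotation, strand and read pairing the sources say nothing, so antisense and overlapping genes can share reads. Reads per library were recovered from the smallest step of each gene, and came out whole (tolerance 0.05 reads) for 14147 of the 14147 genes seen in 2 or more libraries. The scaling between libraries matched size factors of the median-of-ratios kind, which a shift in composition can move.

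Symbols and positions came from GENCODE M21 (98.3% of rows matched) and upstream sequences from RefSeq GRCm38.p6. Member windows on chromosome 18, which carries Lmnb1, were left out, and 6 of the 10 members had a window that was used. Genes at 1 FPKM or more in at least 3 libraries were kept (9543), and log2(FPKM + 1) was fitted with limma 3.58.1 (R 4.3.3, eBayes with a trend, a mean per genotype, 2-sided, Benjamini-Hochberg over all tested genes). The pseudocount understates changes of low genes. The fit was tested on simulated data. Python 3.11.15, pandas 2.3.3, scipy 1.17.1 and matplotlib 3.10.9 made the tables and figures. Named genes outside the members were the 2 most abundant tested genes of each list (no list had a called gene) and the 3 most alike to each member; Pax5, Cd3d, Cd3g, Cd8b1, Syne1, Syne2, Kpna2, Gata1, Klf1 and Slc4a1 were named after their values were seen. A further list is not reported here. The members and lists were chosen with earlier results of these data known.

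The replicate numbers are those of the labels, where no litter, batch or day is attached to them. Deviations from the genotype mean correlated between same-numbered knockout and heterozygous libraries at 0.20, 0.18 and 0.41, each above the limit of 0.1 taken for pairing. Between knockout and wildtype they were -0.57, 0.51 and 0.33, and between heterozygous and wildtype 0.13, 0.18 and 0, not all above that limit. Every value in the text is from the fit without pairing, and the fit with the replicate number as a block was an alternative.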

Additional observations from a re-analysis of the deposited data

How the results depend on the processing

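Under 20 alternative settings per contrast (other pseudocounts, filters, quantile normalization, no trend, 2-group fits, voom, the replicate number as a block, depth or the leukocyte marker mean as a covariate, each library left out), 0 members and 0 genes were called in every one, and the lowest adjusted p of a member was 0.863. With the replicate block, 0 members were called in each contrast. The genes at an unadjusted p below 0.05 then numbered 56 for knockout minus wildtype, 161 for heterozygous minus wildtype and 66 for knockout minus heterozygous, and the block changed no call. Leaving out 1 library gave 0 called members and 0 called genes throughout. Of 600 values of member differences, 74 had the opposite sign to the main value, none of them called, and in 5 of the 30 member and contrast pairs the sign never changed. In the contrasts with wildtype, Vim and Rac2 reached their extremes without wildtype replicate 1 or 3. Between knockout and heterozygous they did so without knockout replicate 1 or 2. Omitting wildtype replicate 3 and knockout replicate 2 together, chosen after seeing the data, left 0 called genes. Of the members 5 of 10 were then at an unadjusted p below 0.05 between knockout and wildtype, against 21.97% of tested genes. Lmna was at 0.42 and Rac2 at -0.79 (limma adjusted p = 0.106 and 0.0985). Wildtype replicate 3 had the highest Lmna and lowest Rac2 of all libraries. Knockout replicate 2 had the lowest Lmna of all and the highest Rac2 among knockout libraries. Omitting both moves these differences in the directions seen, so neither the count nor the p-values can serve as support. The remaining knockout libraries are then both deeper and the wildtype ones both shallower, so genotype and depth cannot be told apart. With 3 libraries a genotype, the 95% interval of Vim reached beyond a 2-fold change.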
